A study of Homo sapiens with 15 samples.

Results

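The genes described here encode the fibrous and matricellular part of the extracellular matrix: collagens, fibrillins, secreted glycoproteins and proteoglycans, and the enzymes that crosslink collagen. They were taken by name, as every collagen chain symbol (COL, a number, A, a number) together with FBN1, FBN2, SPARC, SPOCK1, FN1, TNC, THBS1, THBS2, LOX, LOXL1, LOXL2, LOXL4, TGFBI, FBLN1, FBLN5, EFEMP1, LUM, BGN and VCAN. Of 63 symbols that meet this rule, 47 were among the 16604 genes analysed, 31 of them collagens and 16 other matrix genes. The symbols COL3A1, COL4A5, COL5A3, COL6A5, COL6A6, COL9A1, COL10A1, COL17A1, COL19A1, COL20A1, COL21A1, COL22A1, COL28A1, SPOCK1, LOXL4 and BGN were not analysed here.

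RNA from 15 cultures of 5 human cell lines was sequenced, with 3 biological replicates per line according to the series description. The starting line, Ovcar4Parental, is OVCAR4, a widely used cell line of high-grade serous ovarian carcinoma, which the labels call sensitive to carboplatin and cisplatin. Ov4Cis (cisplatin resistant) and Ov4Carbo (carboplatin resistant) were grown out of such cells under rising drug concentrations, and Ov4Carbo4 and Ov4Carbo7, also labelled carboplatin resistant, each descend from a single Ov4Carbo cell, so that each of these 2 is 1 clone. All lines were grown in DMEM with serum. Each value is a log2 RPKM, the logarithm of reads per kilobase of gene, so that 0 stands for an RPKM of 1. A difference of 1 stands for a 2-fold change. Below 0 the size of a difference depends on how the authors' normalization treats genes with few reads, so most differences that involve a line mean below 0 are given again as log2(RPKM + 1), that is with 1 added to RPKM, which understates the change of low genes.

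Collagens are trimers of coiled chains. Fibrillar collagens assemble into the cables of connective tissue, type IV collagens form the sheet of basement membranes on which epithelia rest, and smaller collagens decorate fibrils or span the cell membrane. Fibrillins build microfibrils, while matricellular proteins such as SPARC, the thrombospondins and tenascin-C bind matrix and receptors and modify adhesion without being structural, and lysyl oxidases crosslink collagen and elastin. Ovarian carcinoma cells secrete some of these proteins themselves, beside those made by tumour fibroblasts.

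The epithelial and Mullerian identity of the lines held for part of the markers. PAX8 (5.85 to 6.74 log2 RPKM over the line means) and SOX17 (6.65 to 7.76), transcription factors of Mullerian epithelium, were high in every line, whereas WT1 was at or below -1.52 in all. The other 4 markers of this kind in the table had unlike line means: MUC16 was at 4.60 in the parental line, -1.73 in Ov4Cis and -0.21 in Ov4Carbo7, MSLN was at 1.89 and FOLR1 at 2.18 in the parental line against -2.29 and -1.06 in Ov4Cis, and EMX2 was at 5.16 against 3.34 in Ov4Cis and 3.24 in Ov4Carbo7. The summed RPKM of 6 epithelial markers was 736 to 884 in the parental samples, 317 to 376 in Ov4Carbo, 254 to 331 in Ov4Carbo4, 222 to 242 in Ov4Carbo7 and 96.2 to 121 in Ov4Cis, where CDH1, KRT7 and KRT19 lay below log2 RPKM 0. Of the 3 fibroblast markers in the table, PDGFRB and THY1 lay below 0 in every line and PDPN above it. The summed RPKM of 3 endothelial markers was 6.37 to 7.40 in the parental samples, 32.3 to 40.9 in Ov4Cis, 4.27 to 6.06 in Ov4Carbo, 20.7 to 25.2 in Ov4Carbo4 and 8.85 to 10.3 in Ov4Carbo7, with VWF and KDR below 0 in every line and CDH5 at 5.13 in Ov4Cis, 4.42 in Ov4Carbo4 and 2.46 in the parental line. That of 2 leukocyte markers was at most 1.96. The part of the epithelial, Mullerian and endothelial marker differences in the matrix values was not tested. In bulk RNA, fewer cells making a transcript and less of it per cell cannot be told apart. The numbers in the sample titles fall into 2 runs: the samples of both clones and replicate 1 of Ov4Carbo stand in the first, and the parental, Ov4Cis and remaining Ov4Carbo samples in the second. The labels do not say what these runs are. Comparisons of Ov4Cis with the parental line and of the clones with each other lie within a run. A clone and the parental line cannot be told apart from the runs, other than through Ov4Carbo. Where a term for the runs was added to the model, it rested on replicate 1 of Ov4Carbo against its replicates 2 and 3. For Ov4Carbo against the parental line or Ov4Cis, that term amounts to leaving out replicate 1. For a clone against Ov4Carbo, it amounts to using replicate 1 alone.

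The matrix genes varied more across the lines than most genes did. The spread between the highest and the lowest line mean had a median of 3.53 log2 units over the 47 genes, against 0.86 over all genes. It was at least 4 units for 19 of the 47, against 6.2% of all genes. Among these 19, COL2A1, COL4A6, COL6A3, COL14A1, COL15A1, LUM and THBS2 stayed below RPKM 1 in every line. Of the others, all but SPARC had a lowest line mean below 0, such as COL11A1 at -5.40 in Ov4Cis and FN1 at -4.90 in Ov4Carbo4. Below 0 the size of a difference depends on the normalization, and the spread is not given with 1 added to RPKM. In the moderated F-test of limma, 46 of the 47 differed among the lines, where 76.9% of all genes did. The exception was COL27A1, a fibrillar collagen at 2.32 to 2.88 in the 5 lines (limma, adjusted p = 0.235). Replicates were also less alike for these genes, with a median SD of 0.42 against 0.17 for all genes in the parental line and 0.60 against 0.28 in Ov4Carbo. By level, 20 genes had a mean of at least log2 RPKM 0 in all 5 lines. Another 18 reached it in some lines (14.9% of all genes), and 9 in none (9.99% of all genes). Members were lower than genes in general. Their median line mean was 2.02 in the parental line and 1.33 in Ov4Cis, against 2.77 over all genes in each.

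**Figure D1:**
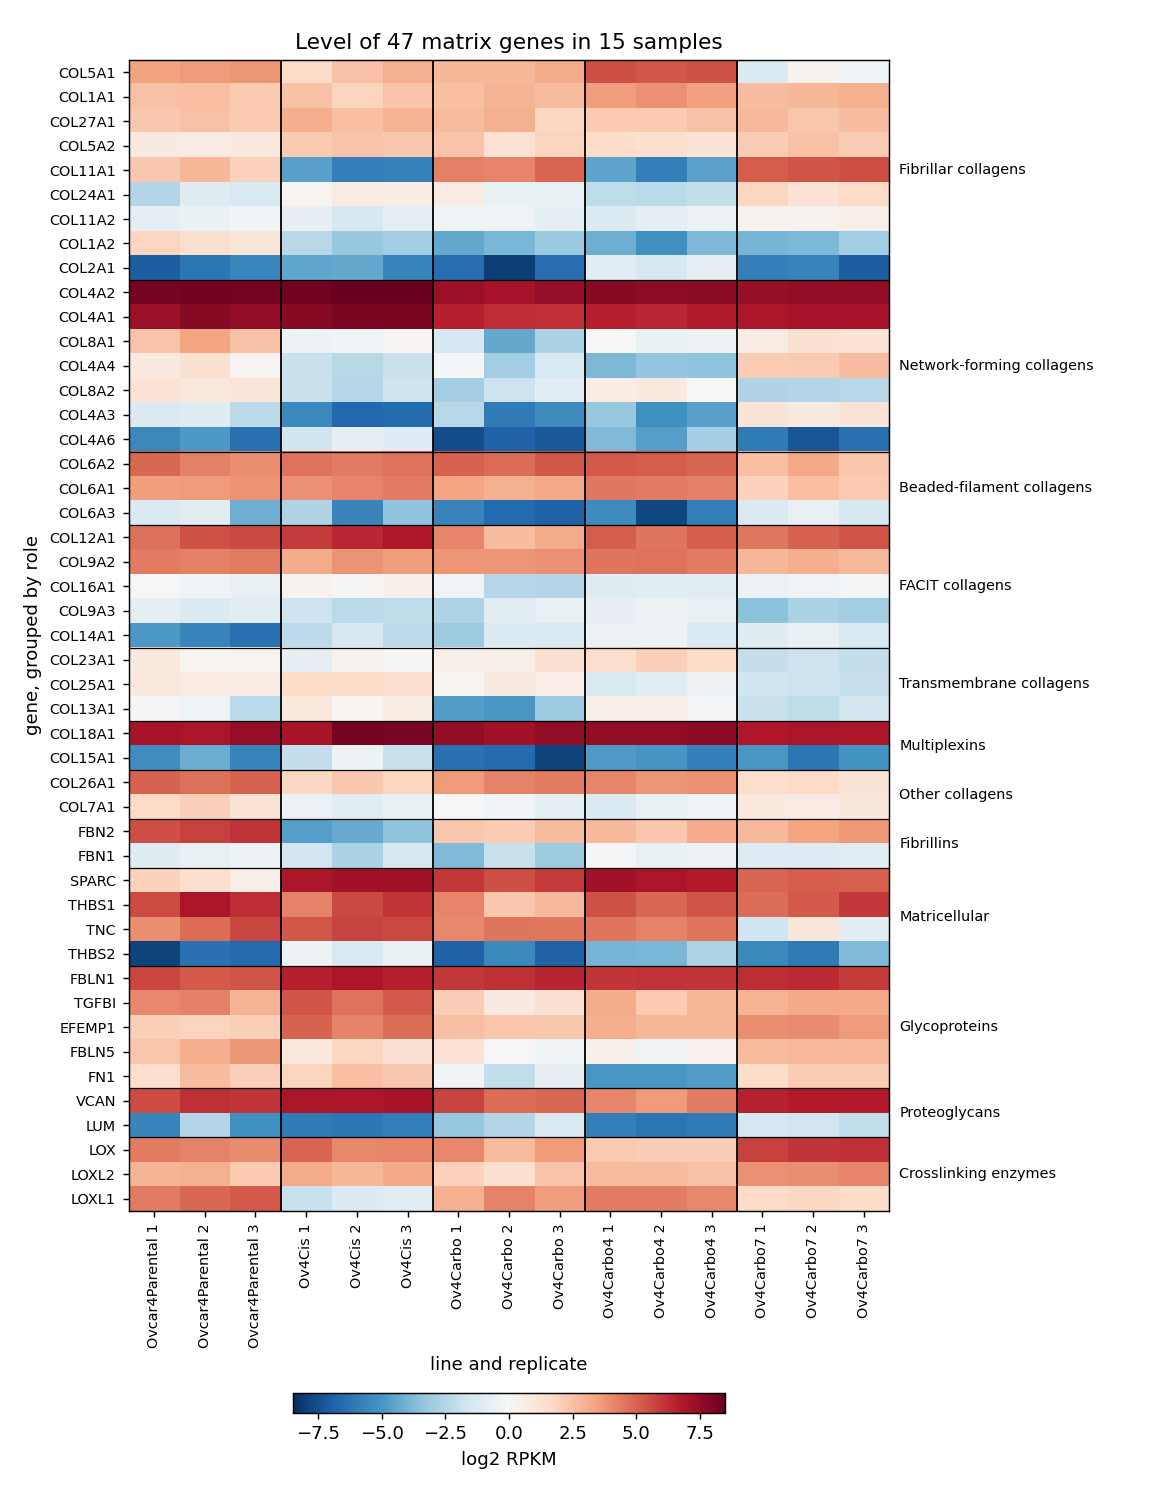
Level of the 47 matrix genes (rows, grouped by role) in the 15 samples (columns, 3 replicates per line), with colour giving log2 RPKM and white marking RPKM 1. COL4A1, COL4A2 and COL18A1 are dark red in every sample, while COL11A1, FBN2, FN1, TNC and COL1A2 change colour between lines.

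Different lines held the highest levels of different members. Ov4Cis had the highest mean for 19 of the 47 genes (18.8% of all genes were highest there), Ov4Carbo4 for 10 (26.8% of all genes), the parental line for 9 (15.2%) and Ov4Carbo7 for 9 (21.9%). Ov4Carbo had the highest mean of 0 members, where 17.3% of all genes peaked in that line, and the lowest mean of 14 (17.6% of all genes). Some of these 14, such as COL12A1, THBS1 and COL8A1, were higher in replicate 1 of Ov4Carbo than in replicates 2 and 3. Others, such as COL6A3 and COL15A1, lay below RPKM 1 in every line. The most abundant members were basement membrane collagens. COL4A2 led in 4 lines, from 7.50 ± 0.10 log2 RPKM in Ov4Carbo7 to 8.35 ± 0.15 in Ov4Cis (SD, n = 3 each). In Ov4Carbo it stood second, at 7.25 ± 0.23, after COL18A1 at 7.44 ± 0.18. COL4A1, COL4A2 and COL18A1, the source of endostatin, made up the 3 highest members in the parental line, Ov4Cis, Ov4Carbo and Ov4Carbo7, and in Ov4Carbo4 SPARC, at 6.92 ± 0.19, was among the 3 highest. Among all genes, only 0.367% had a higher mean than COL4A2 in the parental line.

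A gene is called different below when its limma p, adjusted over all genes of a comparison by the Benjamini-Hochberg method, is under 0.05 and its log2 fold change is at least 1 in size. In Ov4Cis against the parental line, 26 of the 47 genes were called, 12 higher and 14 lower, where 15.9% of all genes were called (8.46% higher, 7.41% lower). Ov4Carbo had 26 called as well (12.7% of all genes), but 6 were higher and 20 lower, against 5.76% and 6.93% of all genes. In Ov4Carbo4 21 members were called (15.1% of all genes), 8 higher and 13 lower (7.43% and 7.7% of all genes). Ov4Carbo7 had 26 (17.0% of all genes), 12 higher and 14 lower (9.26% and 7.75%). The median log2 fold change of the members was 0.18 for Ov4Cis, -0.79 for Ov4Carbo, -0.35 for Ov4Carbo4 and -0.33 for Ov4Carbo7, against 0.04, 0.03, 0.07 and 0.02 over all genes. These comparisons share the 3 parental samples. With a term for the title runs, the members called higher and lower were 12 and 14 in Ov4Cis, 4 and 20 in Ov4Carbo, 9 and 18 in Ov4Carbo4, and 7 and 15 in Ov4Carbo7. Here and below, the shares of all genes called with that term are not given. For Ov4Carbo the term leaves out replicate 1, its only sample of the first run. With that replicate alone, single falls moved either way, and several were no longer called. Among the latter, COL4A4 went from -2.24 to -0.87, COL12A1 from -1.93 to -1.08, COL16A1 from -1.43 to 0.03 and COL4A6 from -1.63 to -1.97. On the log2(RPKM + 1) scale the calls were 18, 14, 13 and 21 in the same order, against 7.58%, 4.76%, 6.34% and 7.79% of all genes. Resistant and parental samples did not overlap for 33, 32, 36 and 33 members, and for 53.4%, 38.4%, 58.1% and 56.5% of all genes.

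**Figure D2:**
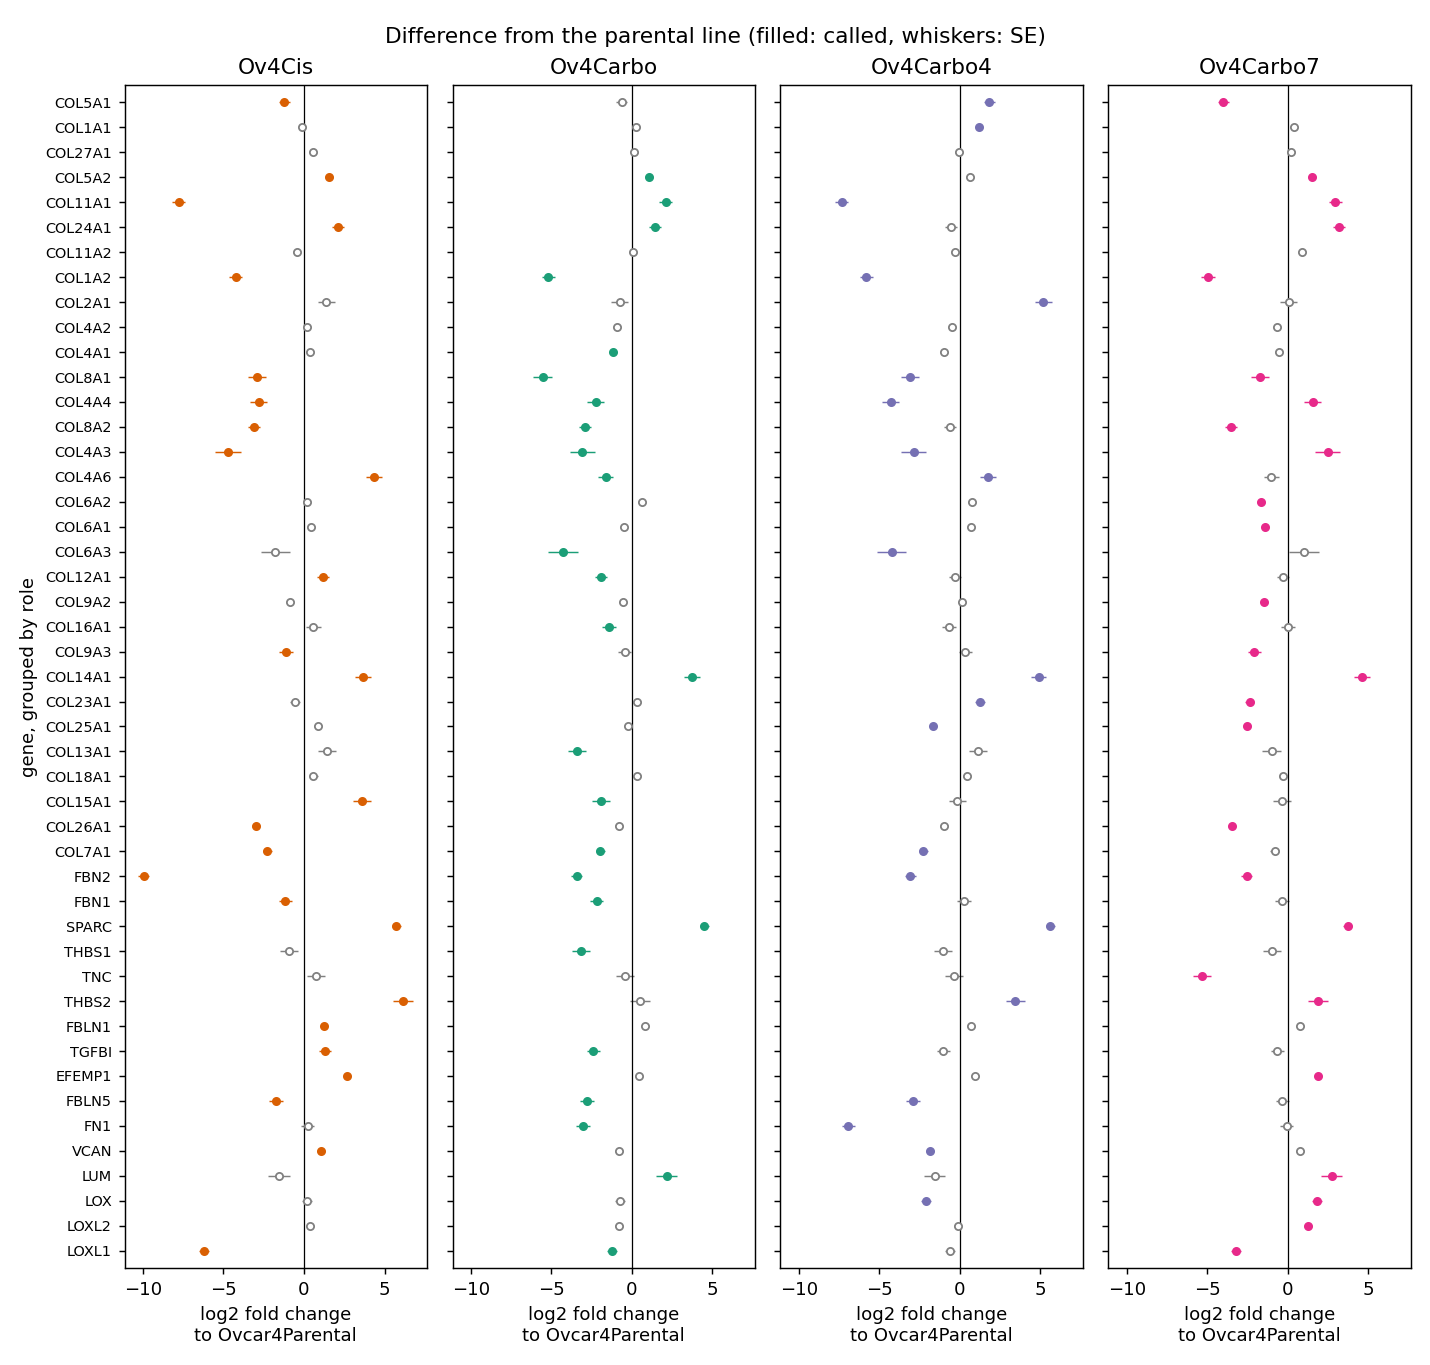
Log2 fold change to the parental line (horizontal axis) of each matrix gene (rows, grouped by role) in the 4 resistant lines, with whiskers for the SE; filled points are called by limma and open points are not. SPARC lies to the right and FBN2, COL1A2 and COL8A1 to the left in all 4 panels, and COL11A1 lies far left in Ov4Cis and Ov4Carbo4 but right in Ov4Carbo and Ov4Carbo7.

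Among the fibrillar collagens, COL11A1 (ENSG00000060718, chromosome 1), a chain of the minor cartilage-type fibrils that also occurs in carcinoma stroma, was nearly absent in some lines and abundant in others. It measured 2.31, 2.85 and 1.98 log2 RPKM in the parental replicates, 4.31, 4.12 and 4.98 in Ov4Carbo, and 5.17, 5.36 and 5.48 in Ov4Carbo7. In Ov4Cis it measured -4.60, -5.84 and -5.75, and in Ov4Carbo4 -4.47, -5.84 and -4.58. Both clones come from the population in which it was high, yet all Ov4Carbo4 samples lay with Ov4Cis, below every sample of the other lines. The log2 fold change to the parental line was -7.78 (limma SE 0.41, adjusted p = 2.96e-08) in Ov4Cis and -7.34 (limma SE 0.41, adjusted p = 9.65e-08) in Ov4Carbo4, or -2.60 and -2.59 with 1 added to RPKM. It was 2.09 (limma SE 0.41, adjusted p = 0.00201) in Ov4Carbo and 2.96 (limma SE 0.41, adjusted p = 9.56e-05) in Ov4Carbo7.

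The chains of type I collagen, the main collagen of connective tissue, parted from each other. COL1A1 (chromosome 17) stayed between line means of 2.26 and 3.63 log2 RPKM. COL1A2 (ENSG00000164692, chromosome 7) measured 1.84, 1.33 and 1.01 in the parental replicates, -2.38, -3.20 and -2.95 in Ov4Cis, -4.37, -3.87 and -3.13 in Ov4Carbo, -4.14, -5.24 and -3.85 in Ov4Carbo4, and -3.96, -3.80 and -2.93 in Ov4Carbo7. Every parental sample lay above every resistant sample, by more than 3 units. Its log2 fold changes were -4.24, -5.18, -5.80 and -4.95 in that order (limma SE 0.42 each, largest adjusted p = 6.65e-06), and -1.67 to -1.79 with 1 added to RPKM. COL1A1 was called only in Ov4Carbo4 among the lines set against the parental one, where it was higher by 1.21 (limma SE 0.17, adjusted p = 0.000164).

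Type V collagen, which regulates fibril diameter, showed the same separation of chains. COL5A1 (ENSG00000130635, chromosome 9) measured 3.42, 3.59 and 3.72 log2 RPKM in the parental line, 1.61, 2.50 and 2.99 in Ov4Cis, and 2.84, 2.82 and 3.14 in Ov4Carbo. In the clones it went opposite ways, to 5.50, 5.27 and 5.43 in Ov4Carbo4 and to -1.17, 0.32 and -0.38 in Ov4Carbo7. The clones' values do not overlap with each other or with those of any other line. Against the parental line the difference was 1.83 (limma SE 0.35, adjusted p = 0.00139) in Ov4Carbo4 and -3.99 (limma SE 0.35, adjusted p = 3.16e-06; -2.85 with 1 added to RPKM) in Ov4Carbo7. The difference in Ov4Cis was -1.21 (limma SE 0.35, adjusted p = 0.0174), and the call was lost without its replicate 1 (-0.83) or replicate 3 of the parental line (-1.14). COL5A2 (chromosome 2) was called higher in Ov4Cis by 1.55 (limma SE 0.23, adjusted p = 0.000175), in Ov4Carbo7 by 1.50 (limma SE 0.23, adjusted p = 0.00021) and in Ov4Carbo by 1.07 (limma SE 0.23, adjusted p = 0.00355). The Ov4Carbo call was lost without its replicate 1 (0.79), which here is the same fit as a term for the title runs. The Ov4Carbo7 call was lost with that term (0.66, limma, adjusted p = 0.128).

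COL24A1, a fibrillar collagen of developing bone and eye, was below RPKM 1 in the parental line (-1.60 ± 0.77) and in Ov4Carbo4 (-2.15 ± 0.14). It was higher than in the parental line by 3.17 (limma SE 0.38, adjusted p = 3.53e-05; 1.56 with 1 added to RPKM, and 1.89 on the log2 scale with a term for the title runs) in Ov4Carbo7 and by 2.12 (limma SE 0.38, adjusted p = 0.000848; 0.85) in Ov4Cis. COL11A2 moved little, between line means of -0.95 and 0.33. COL2A1, the main cartilage collagen, never reached RPKM 1, and its highest line mean was -1.05 in Ov4Carbo4.

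**Figure D3:**
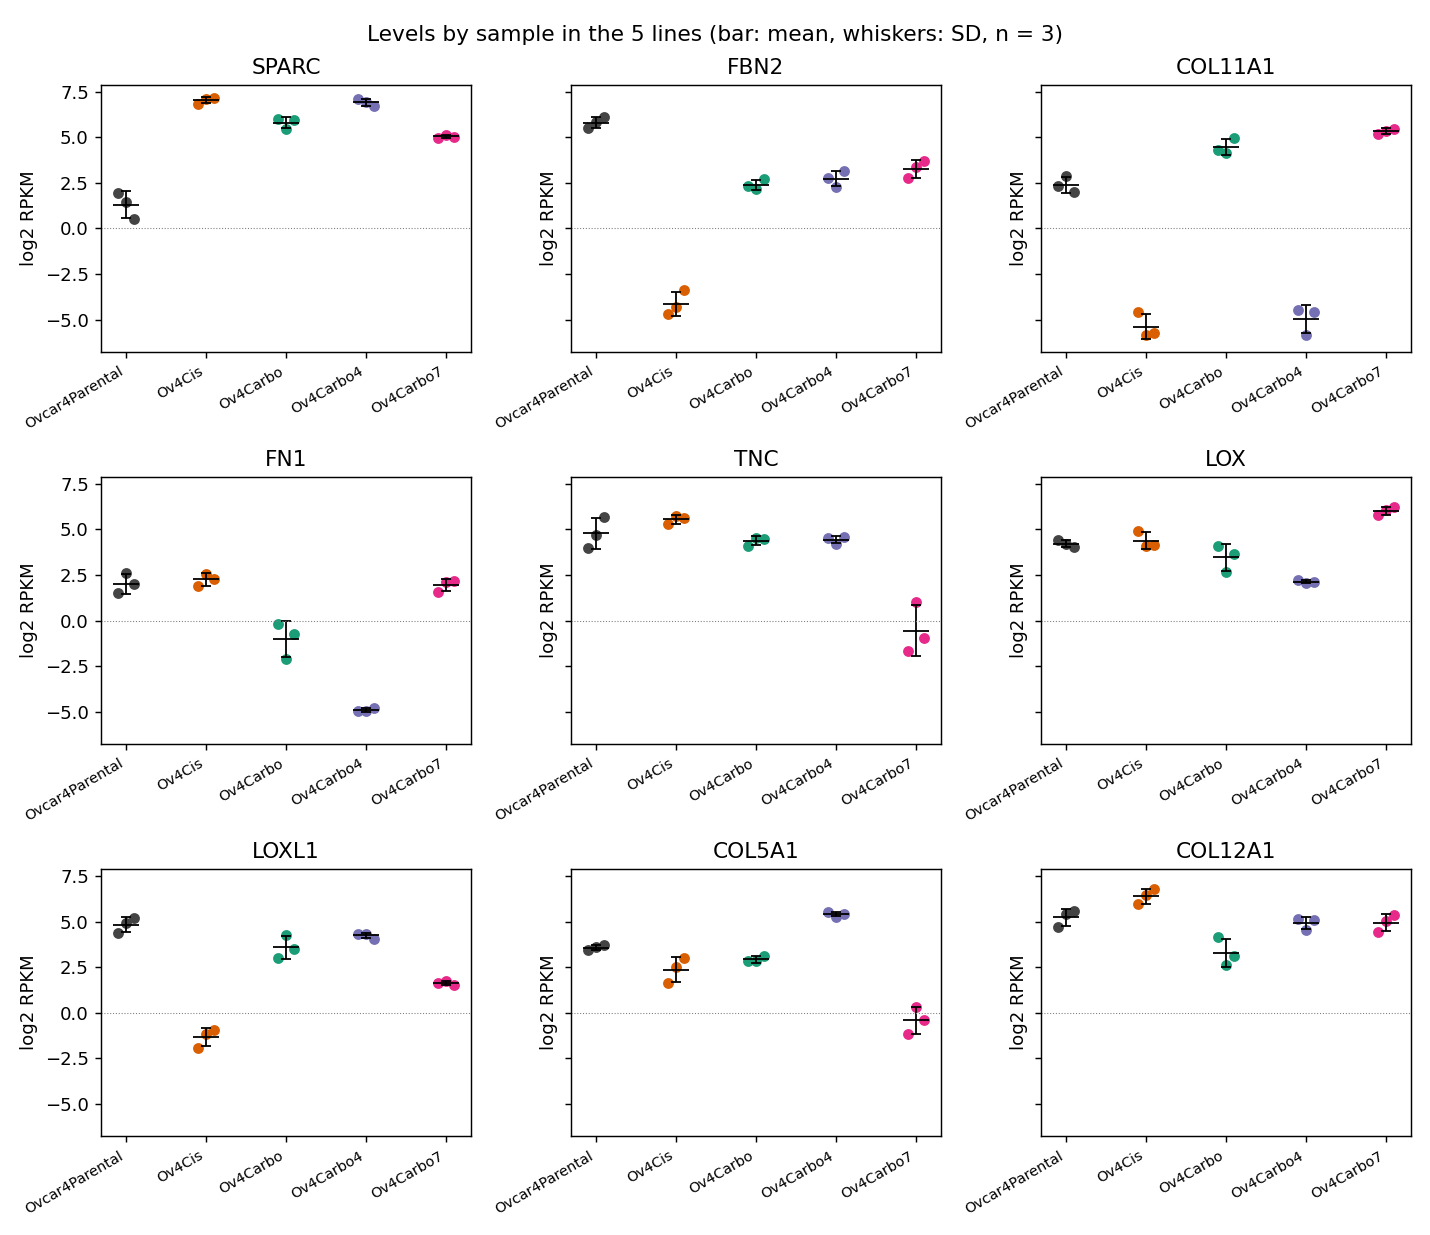
Level of 9 matrix genes in the 5 lines (points: 3 replicates, horizontal bar: mean, whiskers: SD; dotted line at log2 RPKM 0). SPARC is low only in the parental line, FBN2 and LOXL1 fall below 0 only in Ov4Cis, FN1 is lowest in Ov4Carbo4, TNC and COL5A1 are lowest in Ov4Carbo7, and COL11A1 separates Ov4Cis and Ov4Carbo4 from the other lines.

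Among the 7 network-forming collagens, the line means of COL4A2 and COL4A1 spanned 1.10 and 1.52 log2 units, and those of the other 5 spanned 3.53 to 7.19. COL4A1 and COL4A2, whose products form the common type IV trimer of basement membranes, lie head to head on chromosome 13, and COL4A3 and COL4A4, chains of the specialised basement membrane of kidney, lung and inner ear, lie head to head on chromosome 2. The 4 windows below are shown because the genes of each pair start next to each other on opposite strands and moved together across the lines. They run from 250 bases before to 50 bases after the RefSeq start (GRCh38.p14), 5′ to 3′ on the gene's own strand. Capitals mark matches, on either strand, to CCAAT (the NF-Y box), TATAAA (the TATA box), GGGCGG (the GC box), TGANTCA (the AP-1 site) or CACCTG (the E-box of ZEB and SNAI proteins).
COL4A1, chr13:110307108-110307407, minus strand: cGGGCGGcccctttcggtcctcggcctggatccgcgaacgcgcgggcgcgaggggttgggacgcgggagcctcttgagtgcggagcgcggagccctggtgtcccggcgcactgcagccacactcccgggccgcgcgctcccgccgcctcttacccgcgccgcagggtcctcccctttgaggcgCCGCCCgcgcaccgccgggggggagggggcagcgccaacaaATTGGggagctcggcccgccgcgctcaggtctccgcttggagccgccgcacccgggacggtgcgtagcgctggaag
COL4A2, chr13:110307034-110307333, plus strand: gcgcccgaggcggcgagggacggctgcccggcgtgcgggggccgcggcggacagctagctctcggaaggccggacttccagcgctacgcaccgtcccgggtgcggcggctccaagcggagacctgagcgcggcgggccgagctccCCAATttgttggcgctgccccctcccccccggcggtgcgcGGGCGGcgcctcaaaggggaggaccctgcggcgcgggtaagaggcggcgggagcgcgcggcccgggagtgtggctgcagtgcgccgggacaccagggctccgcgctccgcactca
COL4A3, chr2:227164374-227164673, plus strand: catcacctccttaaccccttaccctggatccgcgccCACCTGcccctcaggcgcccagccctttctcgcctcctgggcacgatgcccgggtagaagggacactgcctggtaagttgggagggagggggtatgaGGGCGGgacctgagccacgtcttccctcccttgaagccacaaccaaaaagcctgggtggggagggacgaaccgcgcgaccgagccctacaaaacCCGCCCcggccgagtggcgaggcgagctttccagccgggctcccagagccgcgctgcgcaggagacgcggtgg
COL4A4, chr2:227164156-227164455, minus strand: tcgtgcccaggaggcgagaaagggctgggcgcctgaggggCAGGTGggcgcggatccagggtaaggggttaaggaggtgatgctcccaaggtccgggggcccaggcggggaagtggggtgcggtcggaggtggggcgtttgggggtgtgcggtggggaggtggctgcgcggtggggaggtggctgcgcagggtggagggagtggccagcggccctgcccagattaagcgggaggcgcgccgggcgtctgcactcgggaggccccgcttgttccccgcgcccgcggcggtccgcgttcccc

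The starts of COL4A1 and COL4A2 lie 127 bases apart, so their windows share 226 bases, which hold 1 CCAAT and 1 GGGCGG match. The starts of COL4A3 and COL4A4 lie 419 bases apart, and the 82 bases shared by their windows hold 1 CACCTG match. These are matches of letters only. Of the 47 members 36 had a RefSeq window. GGGCGG occurred in 24 of the 36 windows and in 45.0% of all 35116 windows, CCAAT in 10 and in 34.6%, CACCTG in 5 and in 20.6%, TATAAA in 4 and in 11.5%, and TGANTCA in 0 and in 7.71%.

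COL4A1 (ENSG00000187498) measured 7.36, 7.73 and 7.54 log2 RPKM in the parental line, 7.73, 7.98 and 7.99 in Ov4Cis, 6.64, 6.29 and 6.20 in Ov4Carbo, 6.64, 6.40 and 6.72 in Ov4Carbo4, and 6.94, 6.98 and 7.03 in Ov4Carbo7. All samples of Ov4Carbo and both clones lay below all parental and Ov4Cis samples. In Ov4Carbo the difference to the parental line was -1.16 (limma SE 0.14, adjusted p = 6.71e-05), and -0.90, not called, with replicate 1 as the only Ov4Carbo sample. In the other lines it was under 1 unit in size, at 0.36 in Ov4Cis, -0.96 in Ov4Carbo4 and -0.55 in Ov4Carbo7. COL4A2 (ENSG00000134871) differed in the same directions, by 0.18, -0.92, -0.50 and -0.67 in Ov4Cis, Ov4Carbo, Ov4Carbo4 and Ov4Carbo7, with none of these called. Ov4Cis exceeded Ov4Carbo by 1.52 (limma SE 0.14, adjusted p = 5.54e-06) for COL4A1 and by 1.10 (limma SE 0.12, adjusted p = 2.56e-05) for COL4A2, the latter at 0.97 without replicate 2 of Ov4Carbo.

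COL4A3 and COL4A4 reached RPKM 1 together only in Ov4Carbo7. COL4A4 (ENSG00000081052) measured 2.17, 2.20 and 2.61 log2 RPKM there, 0.85, 1.27 and 0.23 in the parental line, -1.90, -2.33 and -1.87 in Ov4Cis, -0.09, -2.97 and -1.31 in Ov4Carbo, and -3.80, -3.31 and -3.40 in Ov4Carbo4. COL4A3 (ENSG00000169031) measured 1.11, 0.74 and 1.08 in Ov4Carbo7, -1.26, -1.00 and -2.21 in the parental line, and was lower in each of the other 3 lines, at means of -6.22 in Ov4Cis, -4.57 in Ov4Carbo and -4.36 in Ov4Carbo4. All Ov4Carbo7 samples lay above all other samples for both genes, and replicate 1 of Ov4Carbo lay above replicates 2 and 3. Between the clones the difference was 5.83 (limma SE 0.53, adjusted p = 2.92e-06) for COL4A4 and 5.33 (limma SE 0.79, adjusted p = 0.000132) for COL4A3, or 2.47 and 1.49 with 1 added to RPKM. Against the parental line Ov4Carbo7 was higher by 1.54 (limma SE 0.53, adjusted p = 0.0336) and 2.47 (limma SE 0.79, adjusted p = 0.0245), or 1.13 and 1.11 with 1 added to RPKM. Both of these calls were lost without replicate 3 of the parental line (limma, adjusted p = 0.119 and 0.088) and without replicate 1 or 3 of Ov4Carbo7, that of COL4A4 also without replicate 2 of Ov4Carbo7 or replicate 1 of the parental line. A term for the title runs turned them to -0.51 and -0.88 (limma, adjusted p = 0.61 and 0.486). COL4A4 was lower than in the parental line in Ov4Carbo4 and Ov4Cis, with log2 fold changes of -4.29 (limma SE 0.53, adjusted p = 5.07e-05) and -2.82 (limma SE 0.53, adjusted p = 0.00111), or -1.34 and -1.14 with 1 added to RPKM.

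Type VIII collagen, a short-chain collagen of vessel and corneal membranes, was highest in the parental line. COL8A1 (ENSG00000144810, chromosome 3) measured 2.41, 3.33 and 2.49 log2 RPKM there, -0.46, -0.25 and 0.25 in Ov4Cis, -1.40, -4.37 and -2.66 in Ov4Carbo, 0.04, -0.57 and -0.44 in Ov4Carbo4, and 0.66, 1.28 and 1.14 in Ov4Carbo7. No resistant sample reached the lowest parental sample. The log2 fold changes were -2.90, -5.55, -3.07 and -1.72 (limma SE 0.56 each, adjusted p = 0.00129, 1.68e-05, 0.000896 and 0.0255), and the last was not called without replicate 1 or 3 of Ov4Carbo7 or replicate 2 of the parental line (limma, adjusted p = 0.0835, 0.0521 and 0.0966). With 1 added to RPKM the first 3 were -2.02, -2.70 and -2.10. With a term for the title runs the Ov4Carbo4 and Ov4Carbo7 values were -5.19 and -3.84. COL8A2 (chromosome 1) was at 1.05 ± 0.15 in the parental line and at 0.46 ± 0.42 in Ov4Carbo4, where it was not called. Its log2 fold changes in Ov4Cis, Ov4Carbo and Ov4Carbo7 were -3.08, -2.92 and -3.53 (limma SE 0.38, largest adjusted p = 0.000125), or -1.30, -1.23 and -1.38 with 1 added to RPKM, and the last was -2.01 with a term for the title runs. COL4A6, another basement membrane chain, did not reach RPKM 1 in any line, with -1.20 in Ov4Cis as its highest mean.

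**Figure D4:**
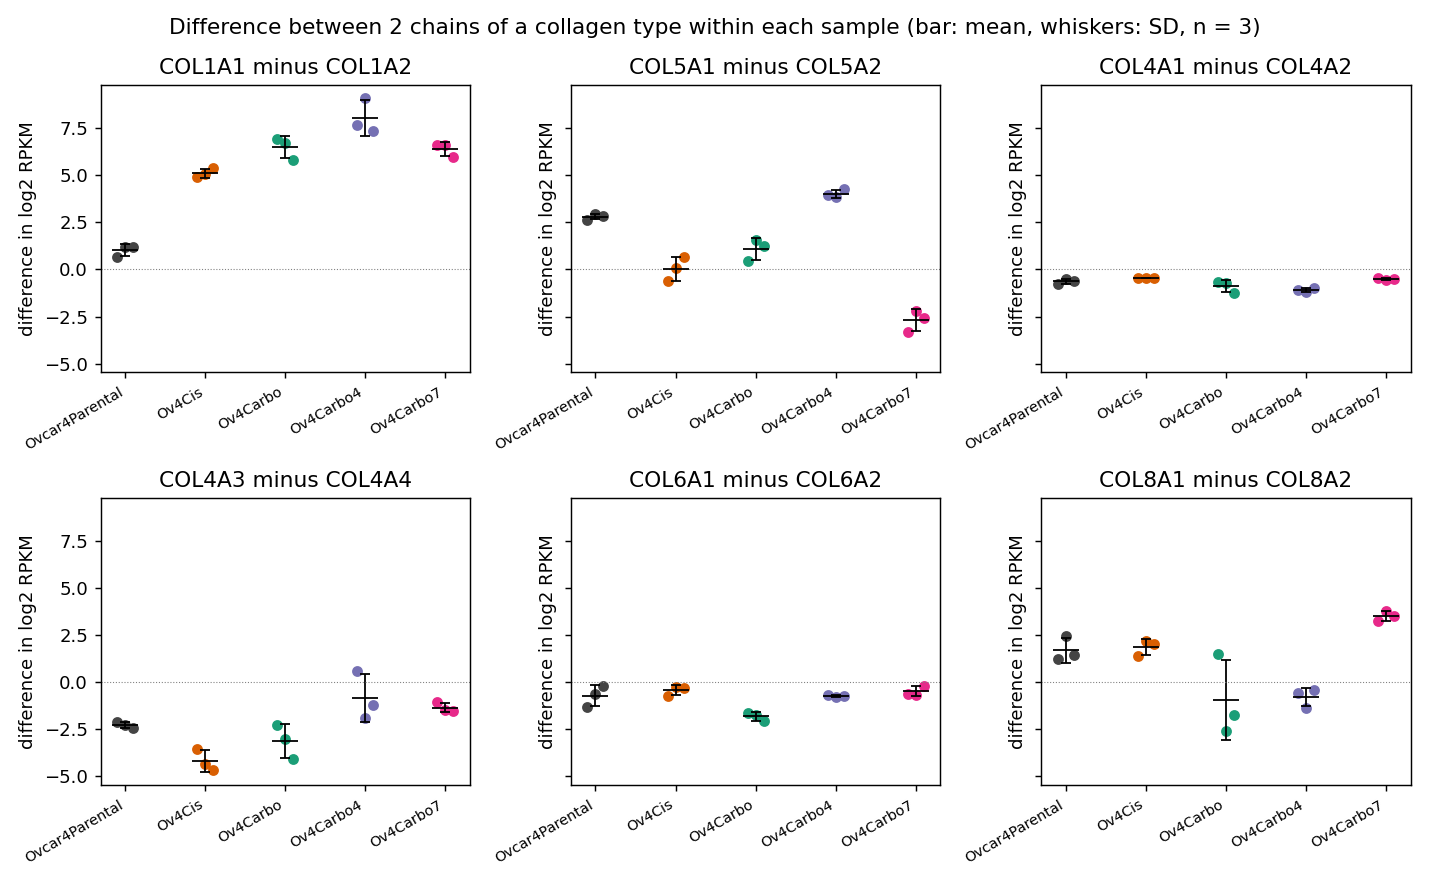
Difference in log2 RPKM between 2 chains of the same collagen type within each sample (points: 3 replicates, horizontal bar: mean, whiskers: SD, dotted line at equal levels). The COL4A1 and COL4A2 difference lies between -1.09 and -0.45 in every line, whereas the COL1A1 and COL1A2 difference rises from 1.02 in the parental line to between 5.11 and 8.04 in the resistant lines. COL1A2 lies below RPKM 1 in every resistant line.

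The log2 difference between 2 chains of a trimer spanned less across the lines for COL4A1 with COL4A2 and for COL6A1 with COL6A2 than for the type I and type V chains. The difference COL4A1 minus COL4A2 lay between -1.09 ± 0.11 in Ov4Carbo4 and -0.45 ± 0.01 in Ov4Cis (SD, n = 3 each). COL6A1 minus COL6A2, neighbours on chromosome 21, lay between -1.82 ± 0.22 in Ov4Carbo and -0.41 ± 0.26 in Ov4Cis. COL4A3 minus COL4A4 spanned more, from -4.19 ± 0.57 in Ov4Cis to -0.85 ± 1.28 in Ov4Carbo4, mostly at levels below RPKM 1. In contrast, COL1A1 minus COL1A2 was 1.02 ± 0.32 in the parental line, 5.11 ± 0.23 in Ov4Cis and 6.48 ± 0.60 in Ov4Carbo, with 8.04 ± 0.93 in Ov4Carbo4 and 6.39 ± 0.39 in Ov4Carbo7. COL1A2 was below RPKM 1 in every resistant line, at means of -4.41 to -2.84, where the size of a difference depends on the normalization. COL5A1 minus COL5A2 ran from 4.02 ± 0.22 in Ov4Carbo4 to -2.68 ± 0.56 in Ov4Carbo7, so that the chain in excess changed. Over the 5 line means Pearson's r was 0.93 for COL4A1 with COL4A2, 0.89 for COL4A3 with COL4A4 and 0.81 for COL6A1 with COL6A2, against -0.57 for the type I, -0.66 for the type V and 0.48 for the type VIII chains. These r values describe 5 points that share libraries and normalization, and the type I, V and VIII pairs were chosen after their values were seen. COL4A1 and COL4A2 overlap on opposite strands in GENCODE v29, and whether the counting used strand is not given in the sources used here, so some reads may not separate the 2 genes. In all, 23 of the 47 members overlap a gene on the opposite strand there.

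The beaded-filament collagen VI, a pericellular collagen, was reduced in Ov4Carbo7. COL6A1 (ENSG00000142156) measured 3.58, 3.64 and 3.79 log2 RPKM in the parental line, 3.90, 4.17 and 4.32 in Ov4Cis, 3.38, 3.02 and 3.23 in Ov4Carbo, 4.50, 4.39 and 4.26 in Ov4Carbo4, and 1.93, 2.56 and 2.20 in Ov4Carbo7. COL6A2 (ENSG00000142173) was at 2.55, 3.22 and 2.38 in Ov4Carbo7 and at 3.97 or above in all other samples. For both genes every Ov4Carbo7 sample lay below every other sample. The differences to the parental line were -1.44 (limma SE 0.16, adjusted p = 2.05e-05) and -1.67 (limma SE 0.24, adjusted p = 0.000164). COL6A3, the chain that completes the trimer, was below RPKM 1 in all lines, with its highest mean of -1.10 in Ov4Carbo7.

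Of the fibril-associated (FACIT) collagens, COL12A1 and COL9A2 were expressed throughout. COL12A1 (ENSG00000111799, chromosome 6), which links fibrils to the surrounding matrix, measured 4.70, 5.41 and 5.58 log2 RPKM in the parental line, 5.97, 6.44 and 6.78 in Ov4Cis, 4.14, 2.61 and 3.14 in Ov4Carbo, 5.17, 4.56 and 5.10 in Ov4Carbo4, and 4.45, 5.01 and 5.36 in Ov4Carbo7. Ov4Cis was the highest and Ov4Carbo the lowest line, with no overlap with the other samples, and the clones lay near the parental line. Ov4Cis exceeded Ov4Carbo by 3.10 (limma SE 0.38, adjusted p = 6.39e-05). The difference of Ov4Carbo to the parental line was -1.93 (limma SE 0.38, adjusted p = 0.0023), and -1.08 (limma, adjusted p = 0.105) with replicate 1 as the only Ov4Carbo sample. That of Ov4Cis was 1.17 (limma SE 0.38, adjusted p = 0.0307), a call lost without replicate 1 or 2 of the parental line (0.90 and 1.26) or replicate 2 or 3 of Ov4Cis (1.15 and 0.97). COL9A2 was lower in Ov4Carbo7, at 2.89 ± 0.17 against 4.36 ± 0.07 in the parental line, a difference of -1.47 (limma SE 0.15, adjusted p = 1.09e-05). COL16A1 had line means of -1.75 to 0.27. COL9A3 and COL14A1 never reached RPKM 1, with highest means of -0.61 and -0.70 in Ov4Carbo4.

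The membrane-spanning collagens were low, between line means of -4.25 and 1.69 log2 RPKM. COL23A1 (chromosome 5) was highest in Ov4Carbo4, at 1.49, 2.03 and 1.55, and lowest in Ov4Carbo7, at -2.00, -1.79 and -2.03. The 2 clones differed by -3.63 (limma SE 0.30, adjusted p = 1.27e-06; -1.75 with 1 added to RPKM). COL25A1, first known from brain plaques, was at 1.57 ± 0.18 in Ov4Cis, 0.73 ± 0.14 in the parental line and 0.50 ± 0.32 in Ov4Carbo, but at -0.93 ± 0.40 in Ov4Carbo4 and -1.82 ± 0.11 in Ov4Carbo7. COL13A1 was at -4.25 ± 1.03 in Ov4Carbo and near RPKM 1 in Ov4Cis and Ov4Carbo4, at 0.57 ± 0.37 and 0.28 ± 0.38. The multiplexin COL18A1 lay between 6.88 and 7.73 in the line means and was not called against the parental line in any resistant line. COL15A1, the other multiplexin, stayed at or below -1.46.

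COL26A1 (ENSG00000160963, chromosome 7), a little-studied secreted collagen, measured 5.01, 4.69 and 5.03 log2 RPKM in the parental line, 1.73, 2.26 and 1.80 in Ov4Cis, 3.61, 4.24 and 4.43 in Ov4Carbo, 4.15, 3.74 and 3.91 in Ov4Carbo4, and 1.52, 1.68 and 1.08 in Ov4Carbo7. The parental samples were the highest, and all Ov4Cis and Ov4Carbo7 samples lay below all others. Its log2 fold change was -2.98 (limma SE 0.23, adjusted p = 7.02e-07) in Ov4Cis and -3.48 (limma SE 0.23, adjusted p = 3.3e-07) in Ov4Carbo7. In Ov4Carbo and Ov4Carbo4 it was -0.82 and -0.98, under the size needed for a call. COL7A1, which anchors epithelia to the stroma beneath, had a mean of 1.62 ± 0.43 in the parental line and was lower in Ov4Cis, Ov4Carbo and Ov4Carbo4. Its log2 fold changes were -2.27, -1.97 and -2.27 (limma SE 0.28, largest adjusted p = 0.000219), or -1.32, -1.19 and -1.31 with 1 added to RPKM.

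FBN2 (ENSG00000138829, chromosome 5), the fibrillin of developing microfibrils, measured 5.49, 5.82 and 6.11 log2 RPKM in the parental line. It measured -4.71, -4.29 and -3.40 in Ov4Cis, 2.31, 2.17 and 2.69 in Ov4Carbo, 2.76, 2.30 and 3.14 in Ov4Carbo4, and 2.75, 3.37 and 3.68 in Ov4Carbo7. The parental samples stood above all others, Ov4Cis stood far below all others, and the 3 carboplatin lines lay between. The log2 fold change was -3.42 (limma SE 0.34, adjusted p = 1.47e-05) in Ov4Carbo, -3.07 (limma SE 0.34, adjusted p = 2.01e-05) in Ov4Carbo4 and -2.54 (limma SE 0.34, adjusted p = 7.37e-05) in Ov4Carbo7. In Ov4Cis it was -9.94 (limma SE 0.34, adjusted p = 6.57e-10), or -5.75 with 1 added to RPKM. The clones and Ov4Carbo did not differ by a called amount, at 0.35 for Ov4Carbo4 (limma, adjusted p = 0.427) and 0.88 for Ov4Carbo7 (limma, adjusted p = 0.0583). FBN1, the fibrillin of adult microfibrils, was below RPKM 1 in every line and highest in Ov4Carbo4, at -0.45 ± 0.25.

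SPARC (ENSG00000113140, chromosome 5), which binds collagen and modulates cell adhesion, measured 1.95, 1.46 and 0.51 log2 RPKM in the parental line. It measured 6.85, 7.12 and 7.15 in Ov4Cis, 5.99, 5.46 and 5.95 in Ov4Carbo, 7.11, 6.91 and 6.74 in Ov4Carbo4, and 4.98, 5.14 and 5.01 in Ov4Carbo7. Every resistant sample lay at least 3 units above the highest parental sample. The log2 fold changes were 5.73, 4.49, 5.61 and 3.74 (limma SE 0.28 each, largest adjusted p = 9.74e-07). Among the resistant lines, Ov4Cis and Ov4Carbo4 overlapped, and Ov4Carbo7 was lower than Ov4Carbo4 (log2 fold change -1.88, limma SE 0.28, adjusted p = 0.000141). SPARC was 1.12 higher in Ov4Carbo4 than in Ov4Carbo (limma SE 0.28, adjusted p = 0.00742). The call was lost without replicate 2 of Ov4Carbo (0.95) and with a term for the title runs (0.93, limma, adjusted p = 0.11). That term sets Ov4Carbo4 against replicate 1 of Ov4Carbo alone.

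TNC (ENSG00000041982, chromosome 9), tenascin-C, an adhesion-modulating protein of developing and wounded tissue, separated Ov4Carbo7 from the rest. It measured -1.67, 1.01 and -0.98 log2 RPKM in Ov4Carbo7. It measured 3.98, 4.72 and 5.68 in the parental line, 5.29, 5.72 and 5.63 in Ov4Cis, 4.10, 4.55 and 4.48 in Ov4Carbo, and 4.54, 4.20 and 4.58 in Ov4Carbo4. Every Ov4Carbo7 sample was below every other sample, and its replicates were unlike each other. The difference to the parental line was -5.34 (limma SE 0.56, adjusted p = 1.09e-05), to Ov4Carbo -4.92 (limma SE 0.56, adjusted p = 5.19e-05) and to Ov4Carbo4 -4.99 (limma SE 0.56, adjusted p = 1.41e-05). On the log2(RPKM + 1) scale these were -3.99, -3.59 and -3.65.

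THBS1 (ENSG00000137801, chromosome 15), thrombospondin-1, which inhibits vessel growth and activates TGF-beta, measured 5.57, 6.91 and 6.28 log2 RPKM in the parental line and 4.18, 2.31 and 2.77 in Ov4Carbo. Ov4Carbo was lower (log2 fold change -3.17, limma SE 0.56, adjusted p = 0.00109), with no overlap. Replicate 1 of Ov4Carbo was the highest of its line, and with it alone the difference was -2.07 and not called (limma, adjusted p = 0.0612). The means of the other lines were 5.31 ± 0.99 in Ov4Cis, 5.20 ± 0.28 in Ov4Carbo4 and 5.30 ± 0.63 in Ov4Carbo7. THBS2 stayed below RPKM 1 throughout and was highest in Ov4Cis, at -0.78 ± 0.45.

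Among the glycoproteins, FN1 (ENSG00000115414, chromosome 2), fibronectin, which carries the main integrin-binding site of the provisional matrix, was nearly absent from Ov4Carbo4. It measured 1.49, 2.59 and 2.00 log2 RPKM in the parental line, 1.90, 2.58 and 2.29 in Ov4Cis, and 1.58, 2.14 and 2.16 in Ov4Carbo7. It measured -0.20, -2.08 and -0.72 in Ov4Carbo and -4.98, -4.95 and -4.77 in Ov4Carbo4. Parental, Ov4Cis and Ov4Carbo7 samples overlapped, Ov4Carbo lay below them and Ov4Carbo4 below all. The log2 fold change to the parental line was -6.92 (limma SE 0.41, adjusted p = 1.43e-07; -2.30 with 1 added to RPKM) in Ov4Carbo4 and -3.03 (limma SE 0.41, adjusted p = 0.000146; -1.72) in Ov4Carbo.

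EFEMP1 (ENSG00000115380, chromosome 2), fibulin-3, measured 2.04, 1.87 and 2.05 log2 RPKM in the parental line and 5.01, 4.19 and 4.72 in Ov4Cis. It measured 2.55, 2.38 and 2.31 in Ov4Carbo, 3.12, 2.81 and 2.82 in Ov4Carbo4, and 3.93, 3.99 and 3.65 in Ov4Carbo7. The lines did not overlap and stood in the order Ov4Cis, Ov4Carbo7, Ov4Carbo4, Ov4Carbo and parental. It was higher than in the parental line by 2.65 (limma SE 0.18, adjusted p = 2.72e-07) in Ov4Cis and 1.87 (limma SE 0.18, adjusted p = 6.39e-06) in Ov4Carbo7, and by 0.93 and 0.43, not called, in Ov4Carbo4 and Ov4Carbo.

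TGFBI (chromosome 5), an adhesion protein induced by TGF-beta, was highest in Ov4Cis, at 5.36, 4.64 and 5.21 log2 RPKM, and lowest in Ov4Carbo, at 2.07, 0.76 and 1.32. These lines did not overlap and differed by 3.68 (limma SE 0.39, adjusted p = 1.78e-05). Ov4Carbo was below the parental line by a log2 fold change of -2.39 (limma SE 0.39, adjusted p = 0.000621). Ov4Cis was above it by 1.30 (limma SE 0.39, adjusted p = 0.02), which was 0.87 without replicate 3 of the parental line and was also not called without replicate 1 or 3 of Ov4Cis (1.15 and 1.23). FBLN5, a fibulin needed for elastic fibres, was at 3.07 ± 0.70 in the parental line and 2.74 ± 0.03 in Ov4Carbo7. It was at 1.33 ± 0.46 in Ov4Cis, 0.29 ± 0.84 in Ov4Carbo and 0.17 ± 0.41 in Ov4Carbo4, with log2 fold changes to the parental line of -1.74, -2.79 and -2.90 (limma SE 0.42, largest adjusted p = 0.00563), and the Ov4Carbo value was -1.84 with its replicate 1 alone. FBLN1 (chromosome 22) was abundant in all lines, at means of 5.42 to 6.67, and was called in Ov4Cis alone among the resistant lines set against the parental one, with a log2 fold change of 1.26 (limma SE 0.16, adjusted p = 5.56e-05).

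Of the proteoglycans, VCAN (ENSG00000038427, chromosome 5), versican, a large hyaluronan-binding molecule of loose matrix, measured 5.53, 6.18 and 6.06 log2 RPKM in the parental line, 6.97, 6.90 and 7.01 in Ov4Cis, 5.72, 4.73 and 4.89 in Ov4Carbo, 4.14, 3.62 and 4.38 in Ov4Carbo4, and 6.52, 6.75 and 6.72 in Ov4Carbo7. Ov4Carbo4 was the lowest and Ov4Cis the highest line, neither overlapping with any other. The clones differed by 2.62 (limma SE 0.26, adjusted p = 5.15e-06). Against the parental line the difference was -1.87 (limma SE 0.26, adjusted p = 0.00011) in Ov4Carbo4 and 1.04 (limma SE 0.26, adjusted p = 0.00682) in Ov4Cis, the latter 0.84 without replicate 1 of the parental line. LUM, lumican, a small proteoglycan that binds fibrils, did not reach RPKM 1, with its highest mean of -1.73 in Ov4Carbo7.

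The crosslinking enzymes LOX, LOXL1 and LOXL2 were distributed in different ways. LOX (ENSG00000113083, chromosome 5) measured 4.41, 4.20 and 4.05 log2 RPKM in the parental line, 4.92, 4.11 and 4.12 in Ov4Cis, 4.09, 2.67 and 3.65 in Ov4Carbo, 2.22, 2.06 and 2.10 in Ov4Carbo4, and 5.79, 6.08 and 6.23 in Ov4Carbo7. The clones lay on opposite sides of all other samples. They differed by 3.90 (limma SE 0.31, adjusted p = 9.36e-07). Against the parental line the difference was -2.09 (limma SE 0.31, adjusted p = 0.000189) in Ov4Carbo4 and 1.81 (limma SE 0.31, adjusted p = 0.00048) in Ov4Carbo7, and the latter was 0.88 (limma, adjusted p = 0.185) with a term for the title runs. LOXL2 (chromosome 8) was also highest in Ov4Carbo7, at 3.98 ± 0.14 against 2.73 ± 0.42 in the parental line, a difference of 1.26 (limma SE 0.25, adjusted p = 0.00138), and 1.18 (limma, adjusted p = 0.0825) with that term.

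LOXL1 (ENSG00000129038, chromosome 15), which acts mainly on elastic fibres, measured 4.40, 4.90 and 5.21 log2 RPKM in the parental line, 2.99, 4.24 and 3.52 in Ov4Carbo, and 4.33, 4.34 and 4.06 in Ov4Carbo4. It measured 1.65, 1.73 and 1.54 in Ov4Carbo7 and -1.91, -1.18 and -0.96 in Ov4Cis. Ov4Cis lay below RPKM 1 and below every other sample, and Ov4Carbo7 lay between it and the rest. The log2 fold change to the parental line was -6.19 (limma SE 0.31, adjusted p = 2.33e-08; -4.40 with 1 added to RPKM) in Ov4Cis and -3.20 (limma SE 0.31, adjusted p = 6.14e-06) in Ov4Carbo7. In Ov4Carbo it was -1.26 (limma SE 0.31, adjusted p = 0.00821). It was -0.96, not called, without replicate 1 of Ov4Carbo, which here is the same fit as a term for the title runs.

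The 2 clones of Ov4Carbo differed from each other in LOX, VCAN, FN1, COL11A1, COL4A3 and COL4A4, higher in Ov4Carbo7, and in COL5A1, TNC, COL23A1, COL6A1, COL6A2 and LOXL1, higher in Ov4Carbo4. Of the 47 genes 28 were called, 13 higher and 15 lower in Ov4Carbo7, where 20.9% of all genes were called (11.1% higher, 9.86% lower). COL11A1 differed most, by 10.30 (limma SE 0.41, adjusted p = 5.69e-09), or 5.32 with 1 added to RPKM. COL5A1 differed by -5.81 (limma SE 0.35, adjusted p = 1.52e-07; -4.60) and FN1 by 6.86 (limma SE 0.41, adjusted p = 1.26e-07; 2.25). With 1 added to RPKM 19 were called (10.5% of all genes), and the 3 values per clone did not overlap for 37 members (67.3% of all genes). These samples share a title run.

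Against the Ov4Carbo population, more members were higher than lower in each clone. Ov4Carbo4 had 22 called (14.2% of all genes), 14 higher and 8 lower (7.58% and 6.64% of all genes), and Ov4Carbo7 had 27 (13.3% of all genes), 19 higher and 8 lower (7.72% and 5.62%). With 1 added to RPKM 10 and 19 were called (5.45% and 4.96% of all genes), and the samples did not overlap for 28 and 34 members (49.6% and 42.3% of all genes). Both comparisons share the Ov4Carbo samples. With a term for the title runs, 13 were higher and 9 lower in Ov4Carbo4, and 12 higher and 8 lower in Ov4Carbo7. That term sets each clone against replicate 1 of Ov4Carbo alone. COL5A1 was higher by 2.47 (limma SE 0.35, adjusted p = 0.000193) in Ov4Carbo4, and differed by -3.34 (limma SE 0.35, adjusted p = 3.45e-05; -2.27 with 1 added to RPKM) in Ov4Carbo7. COL12A1 was higher by 1.64 in each clone (limma SE 0.38, adjusted p = 0.0048 and 0.00548) and THBS1 by 2.12 and 2.22 (limma SE 0.56, adjusted p = 0.00957 and 0.00853). Replicates 2 and 3 of Ov4Carbo stand in the other title run. Against replicate 1 alone the differences were 0.80 for COL12A1 in both clones, and 1.03 and 1.12 for THBS1, with none called.

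Ov4Cis differed from the carboplatin lines in, among others, higher FN1, VCAN, TGFBI, EFEMP1 and COL12A1 than Ov4Carbo and Ov4Carbo4 and lower FBN2 and LOXL1 than all 3. Against Ov4Carbo 23 members were called (13.8% of all genes), 18 higher and 5 lower in Ov4Cis (7.88% and 5.9% of all genes). Against Ov4Carbo4 28 were called (16.8% of all genes), 17 higher and 11 lower (9.12% and 7.72%), and against Ov4Carbo7 25 (14.7% of all genes), 13 higher and 12 lower (7.46% and 7.2%). With 1 added to RPKM each of the 3 gave 15 (5.77%, 7.69% and 6.65% of all genes), and the samples did not overlap for 31, 36 and 40 members (41.0%, 63.6% and 56.5% of all genes). With a term for the title runs, the members higher and lower in Ov4Cis were 22 and 7 against Ov4Carbo, 15 and 12 against Ov4Carbo4, and 14 and 8 against Ov4Carbo7. FBN2 differed by -6.52, -6.87 and -7.40 (limma SE 0.34, largest adjusted p = 3.69e-08), or -2.56, -2.86 and -3.33 with 1 added to RPKM. LOXL1 differed by -4.93, -5.60 and -2.99 (limma SE 0.31, largest adjusted p = 1.39e-05), or -3.21, -3.83 and -1.55. EFEMP1 was higher than in Ov4Carbo by 2.23 and than in Ov4Carbo4 by 1.72 (limma SE 0.18, adjusted p = 2.02e-06 and 1.13e-05).

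Among the enzymes that make and process collagen, PLOD2 was higher in 3 of the resistant lines and P3H2 lower in all 4. For the genes of this list and of the lists below, no values with a term for the title runs or without single replicates are given. Of 25 such genes in the table, limma called 3 higher and 4 lower in Ov4Cis against the parental line, 4 and 5 in Ov4Carbo, 2 and 5 in Ov4Carbo4, and 3 and 5 in Ov4Carbo7. Of all genes, 8.46% were higher and 7.41% lower in Ov4Cis, 5.76% and 6.93% in Ov4Carbo, 7.43% and 7.7% in Ov4Carbo4, and 9.26% and 7.75% in Ov4Carbo7. PLOD2, the lysyl hydroxylase of collagen telopeptides, had a parental level of 3.68 ± 0.06 log2 RPKM and rose to 4.85 ± 0.15 in Ov4Cis, 5.22 ± 0.20 in Ov4Carbo and 6.49 ± 0.13 in Ov4Carbo7, with log2 fold changes of 1.17, 1.54 and 2.81 (limma SE 0.12, largest adjusted p = 6.31e-06). P3H2, a prolyl 3-hydroxylase, was at 5.15 ± 0.19 in the parental line and had log2 fold changes of -1.58, -1.07, -1.88 and -1.47 in the 4 lines (limma SE 0.20, largest adjusted p = 0.0016). ADAMTS3, a procollagen peptidase, was at 1.92 ± 0.17 in Ov4Cis against -1.23 ± 0.23 in the parental line (3.16, limma SE 0.23, adjusted p = 3.94e-07; 1.75 with 1 added to RPKM).

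Of 22 matrix proteases and inhibitors, 8 were called higher and 4 lower in Ov4Cis, 3 and 5 in Ov4Carbo, 2 and 3 in Ov4Carbo4, and 7 and 4 in Ov4Carbo7, where 15.9%, 12.7%, 15.1% and 17.0% of all genes were called in either direction. TIMP3, a matrix-bound protease inhibitor, fell from 5.35 ± 0.25 log2 RPKM by log2 fold changes of -2.41, -2.00, -2.06 and -3.23 in Ov4Cis, Ov4Carbo, Ov4Carbo4 and Ov4Carbo7 (limma SE 0.29, largest adjusted p = 0.000251). MMP1, interstitial collagenase, was at 2.69 ± 1.34 in Ov4Cis against -3.60 ± 0.50 in the parental line (6.29, limma SE 0.61, adjusted p = 5.4e-06; 2.83 with 1 added to RPKM). ADAMTS1, a versican-cleaving protease, went from 4.92 ± 0.44 to -1.70 ± 0.10 in Ov4Cis (-6.62, limma SE 0.24, adjusted p = 1.15e-09; -4.58).

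Among 18 microfibril and elastic fibre partners, 3 were called higher and 4 lower in Ov4Cis, 1 and 8 in Ov4Carbo, 2 and 4 in Ov4Carbo4, and 2 and 6 in Ov4Carbo7, against 8.46% and 7.41%, 5.76% and 6.93%, 7.43% and 7.7%, and 9.26% and 7.75% of all genes. LTBP2, which binds microfibrils, fell from 3.99 ± 0.04 log2 RPKM by log2 fold changes of -2.83 in Ov4Carbo, -1.83 in Ov4Carbo4 and -3.86 in Ov4Carbo7 (limma SE 0.17, largest adjusted p = 6.35e-06). FBN3, another fibrillin, was at 1.13 ± 0.41 in the parental line and lower in Ov4Cis, Ov4Carbo and Ov4Carbo7 (-4.04, -2.62 and -3.29, limma SE 0.52, largest adjusted p = 0.00214; -1.48, -1.19 and -1.38 with 1 added to RPKM). Of 19 collagen and fibronectin receptors, 3 were higher and 3 lower in Ov4Cis, 1 and 5 in Ov4Carbo, 2 and 4 in Ov4Carbo4, and 3 and 3 in Ov4Carbo7, where 15.9%, 12.7%, 15.1% and 17.0% of all genes were called. ITGA5, the fibronectin receptor chain, had log2 fold changes of 2.06, 1.16, 1.59 and 1.74 (limma SE 0.21, largest adjusted p = 0.00126). ITGB6, an epithelial integrin chain that activates TGF-beta, had -3.38, -3.05, -1.95 and -4.72 (limma SE 0.34, largest adjusted p = 0.000678), or -2.32, -2.14, -1.53 and -2.74 with 1 added to RPKM.

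The patterns of 4 members over the 5 line means were set beside those of the other members. The 3 most like COL11A1 were LUM (Pearson's r 0.95), COL11A2 (0.82) and COL4A4 (0.78). For FBN2 they were LOXL1 (0.89), COL7A1 (0.70) and COL4A3 (0.69), for SPARC FBLN1 (0.89), COL14A1 (0.88) and THBS2 (0.73), and for FN1 VCAN (0.95), LOX (0.85) and COL6A3 (0.80). Each r rests on 5 points from the same libraries, and LUM, COL14A1, THBS2 and COL6A3 stay below RPKM 1 in every line.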

How the data were processed

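The authors deposited log2 RPKM values after conditional quantile normalization (cqn, an adjustment for gene length and GC content), per the name of the table, for 16604 genes in 15 samples. The submitters' processing notes name BWA 0.7.15-r1140, HTSeq and GRCh37 (hg19), and libraries used polyA capture, per the labels' protocols. The rule of a threshold in the table's name, read totals and counting strand are not given in the sources used here, so the depth is unknown. Sample minima lay between -8.18 and -7.68, and the medians were 2.77.

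Symbols matched 16448 genes. Values of all samples were fitted with limma 3.58.1 (R 4.3.3, lmFit and eBayes, two-sided), with a coefficient per line. Benjamini-Hochberg adjustment ran over the full table, separately for 10 contrasts. A call needed an adjusted p below 0.05 and a log2 difference of 1 or more in size. The model was tested on simulated data. Alternatives were log2(RPKM + 1), a filter at a mean log2 RPKM of 1, centring, a term for the 2 title runs, a replicate block, fits of only the 2 lines compared, and leaving out each replicate. Leaving out replicates 2 and 3 of Ov4Carbo together was added after seeing the data. The labels tie replicate numbers to no shared batch. In 12 of 30 same-number pairs the deviations from the line means correlated above 0.1 (r from -0.50 to 0.54), and all 3 pairs did so only for Ov4Cis with Ov4Carbo7 (0.33, 0.27 and 0.32). Members, roles and other lists were chosen with earlier results of these data known. Sample values are given for called members without overlap and with a line mean of at least log2 RPKM 1, up to the 6 largest rises and falls per comparison, and for some others of the same role. From the other lists, genes among the 3 largest rises or falls could be named. Chromosome names and overlaps come from GENCODE v29 and promoters from RefSeq. Python 3.11.15, pandas 2.3.3 and matplotlib 3.10.9 made the tables and figures.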

Additional observations from a re-analysis of the deposited data

Results flagged for a closer look

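Against the parental line, 11 of the 47 members were called in opposite directions in 2 resistant lines that also differed from each other in the direct limma comparison, which gave 20 values. The share of all genes that meet this rule is not given, so the count of members is set against no background. Ov4Carbo7 enters 11 of the 20 values, 6 for COL4A3 and COL4A4. In log2 units, with the value after adding 1 to RPKM in parentheses, Ov4Carbo7 minus Ov4Carbo4 was 10.30 (5.32) for COL11A1, 5.33 (1.49) for COL4A3, 5.83 (2.47) for COL4A4, 3.90 (3.63) for LOX, -3.63 (-1.75) for COL23A1 and -5.81 (-4.60) for COL5A1. Ov4Carbo7 minus Ov4Carbo was 5.54 (1.46) for COL4A3 and 3.78 (2.05) for COL4A4. Ov4Cis minus Ov4Carbo7 was -10.74 (-5.34) for COL11A1, -7.19 (-1.55) for COL4A3 and -4.36 (-2.27) for COL4A4. With a term for the title runs, Ov4Carbo7 minus Ov4Carbo was 3.31 for COL4A3 and 2.41 for COL4A4, and Ov4Cis minus Ov4Carbo7 was -3.84 and -2.31. The opposite directions of COL4A3 and COL4A4 rest on their calls in Ov4Carbo7 against the parental line, which that term turned to -0.88 and -0.51 and which were lost without single replicates. That of LOX rests on a call which the term lowered to 0.88.

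The others set Ov4Cis or Ov4Carbo4 apart. Ov4Cis minus Ov4Carbo was -9.87 (-4.50) for COL11A1, 3.10 (2.96) for COL12A1, 3.68 (3.24) for TGFBI, 5.49 (0.47) for COL15A1 and 5.98 (0.52) for COL4A6. Ov4Carbo4 minus Ov4Carbo was -9.43 (-4.49) for COL11A1 and 3.38 (0.10) for COL4A6. Ov4Cis minus Ov4Carbo4 was 2.91 (2.84) for VCAN and -3.04 (-2.80) for COL5A1. These opposite directions of COL12A1, TGFBI, VCAN and COL5A1 rest on calls in Ov4Cis against the parental line that were lost without single replicates. For COL12A1 the difference of Ov4Carbo to the parental line was also -1.08 with replicate 1 as the only Ov4Carbo sample. COL15A1 and COL4A6 lay below RPKM 1 in every line, and the calls of COL4A6 in Ov4Carbo and Ov4Carbo4 against the parental line were lost with the title-run term. Groups of 3 samples were not screened for single deviating samples.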

How the results depend on the processing

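On the log2(RPKM + 1) scale the members called moved to 14 for Ov4Carbo and 13 for Ov4Carbo4 against the parental line, 10 for Ov4Carbo4 against Ov4Carbo, and 15 each for Ov4Cis against Ov4Carbo, Ov4Carbo4 and Ov4Carbo7. With only the 24 members of mean log2 RPKM 1 or more, which leaves fewer genes to call, the counts against the parental line were 12 for Ov4Cis, 9 for Ov4Carbo, 8 for Ov4Carbo4 and 13 for Ov4Carbo7. The filtered counts were 8 and 13 for Ov4Carbo4 and Ov4Carbo7 against Ov4Carbo, 12 for Ov4Carbo7 against Ov4Carbo4, and 12, 13 and 11 for Ov4Cis against Ov4Carbo, Ov4Carbo4 and Ov4Carbo7, while 23 differed in the F-test. The shares called among all genes that pass the filter are not given, so these counts are set against no background. Of the 252 called differences of single members, centring changed 0 and log2(RPKM + 1) lost 95, with 0 reversed.

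Leaving out each replicate in turn, the members called ranged from 22 to 27 for Ov4Cis, 23 to 26 for Ov4Carbo, 20 to 23 for Ov4Carbo4 and 22 to 29 for Ov4Carbo7 against the parental line. They ranged from 20 to 23 for Ov4Carbo4 and 24 to 28 for Ov4Carbo7 against Ov4Carbo, 27 to 29 between the clones, 23 to 29, 23 to 30 and 23 to 27 for Ov4Cis against Ov4Carbo, Ov4Carbo4 and Ov4Carbo7, and 45 to 46 in the F-test. The shares of all genes called in these fits, and with the replicate block below, are not given. With a term for the title runs, COL4A3 and COL4A4 in Ov4Carbo7 against the parental line turned to -0.88 and -0.51, COL16A1 in Ov4Carbo7 against Ov4Carbo to -0.03 and COL24A1 in Ov4Cis against Ov4Carbo7 to 0.24, and the cause was not tested. With replicate 1 as the only Ov4Carbo sample, COL16A1 was 0.03 in Ov4Carbo against the parental line. For Ov4Carbo7 against Ov4Carbo this setting gives the same -0.03 as the term. With a replicate block, the members called were 24 for Ov4Cis, 26 for Ov4Carbo, 22 for Ov4Carbo4 and 26 for Ov4Carbo7 against the parental line, 22 for Ov4Carbo4 and 27 for Ov4Carbo7 against Ov4Carbo, 28 between the clones, and 24, 27 and 24 for Ov4Cis against Ov4Carbo, Ov4Carbo4 and Ov4Carbo7. The block lost 5 of the 252 called differences and reversed 0. Of those lost, 1 was between Ov4Cis and Ov4Carbo7, the lines whose same-number samples deviated together, where COL24A1 was at -1.05 (limma, adjusted p = 0.0758).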
